A study of Mus musculus with 6 samples.

Results

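The 10 genes described here belong to the integrated stress response, and were chosen by symbol with earlier results of these arrays known. They were Eif2ak1, Eif2ak3, Eif2ak4, Atf4, Atf5, Ddit3, Trib3, Chac1, Nupr1 and Ppp1r15a, 10 of the 19938 genes that the array named. Each was measured by 1 array feature that named it and no other gene, so no second feature was there to compare it with.

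In this response, kinases that each sense a different stress phosphorylate the translation initiation factor eIF2. Phosphorylated eIF2 lowers translation in general and raises that of a few messages, among them Atf4, whose upstream reading frames then let ribosomes reach the main one. ATF4 protein, a bZIP transcription factor, switches on genes of amino acid supply and of feedback, Trib3 and Chac1 among them. Since the kinases and ATF4 itself are regulated after transcription, their messages need not follow the activity of the pathway.

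Whole mouse embryos of the outbred CD1 stock were cultured from embryonic day 5.0 for 8 hours at 37 °C and 5% CO2, in narrow cavities of 90 µm or in wide cavities of 180 µm diameter. The series asked how embryos with and without external mechanical cues differ. There were 3 samples of narrow and 3 of wide cavities, each a pool of 30 embryos, called biological replicates by the submitters and numbered 1 to 3 in their titles. Both groups shared strain, stage, temperature and culture time, and no embryos taken straight from the uterus were analysed here, so a response to culture itself was not measured.

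Signals are log2 array values, so a difference of 1 is a doubling, and a signal of 1 gene was not set against that of another. Array medians lay between 7.62 and 7.67. In both cavities the array numbered 1 differed from the others: on the leading principal component, which held 38.5% of all variance, narrow 1 and wide 1 scored -10.6 and -8.01 and the other 4 arrays between 2.76 and 5.87. Epiblast, extraembryonic ectoderm and visceral endoderm markers had signals well up the array's range of 4.33 to 14.31, with Pou5f1 from 11.75 to 11.86, Cdx2 from 10.5 to 10.7 and Afp from 10.8 to 11.1. Median narrow minus wide differences were -0.020 over 8 epiblast, -0.0099 over 8 extraembryonic ectoderm and 0.0020 over 12 visceral endoderm markers. They were 0.013 over 8 parietal endoderm, 0.0042 over 3 giant cell, 0.0018 over 8 decidual and 0.010 over 6 blood and macrophage markers, and 0 markers passed the test described below. Single markers differed by more, in both directions. Of the extraembryonic ectoderm list, Esrrb at -0.22 ± 0.04 and Bmp4 at -0.21 ± 0.08 had every narrow array below every wide array. Tfap2c of the same list, at 0.093 ± 0.047, had every narrow array above, and 3 of the 8 markers on that list were positive. Of the visceral endoderm list, Trf at 0.18 ± 0.05 had every narrow array above and Hnf4a at -0.064 ± 0.040 every one below. Sox2 of the epiblast list, at -0.095 ± 0.047, had every narrow array below, and 2 of the 8 markers on that list were positive. Bmp2 of the decidual list, at 0.14 ± 0.06, had every narrow array above, and 4 of the 8 markers on that list were positive. Over all genes 4.17% lay above and 3.54% below in this way. The largest marker difference, of Lyz2 in the blood and macrophage list, was -0.41 ± 0.32 with overlapping groups. The part of these markers in the results below was not tested. In pools of whole embryos, fewer cells of a type and less RNA per cell cannot be told apart.

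Between the cavities, Trib3 and Chac1 had the largest differences of the 10 genes, both higher in narrow cavities by about the same amount, while the genes of the kinases, of Atf4 and of the phosphatase subunit Ppp1r15a had nearly equal signals in both cavities. By limma with Benjamini-Hochberg adjustment over all genes, 0 of the 10 passed a threshold of 0.05, as did 0 of all 19938 genes (0%). At an unadjusted p under 0.05 stood 2 of the 10, Trib3 and Chac1, beside 678 of all genes (3.40%). With the replicate number as a block these 2 genes did so again, beside 7.25% of all genes, and 0 passed after adjustment. Since both were known when the genes were chosen, these counts and the differences below are a description of these 6 pools. Of the 10 differences 7 were positive, against 50.9% of all genes, and 3 negative, against 49.1%. The median of the 10 was 0.037 on the log2 scale, against 0.0011 over all genes. Without both arrays numbered 1 the median of the 10 was 0.031, again with 7 positive.

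**Figure D1:**
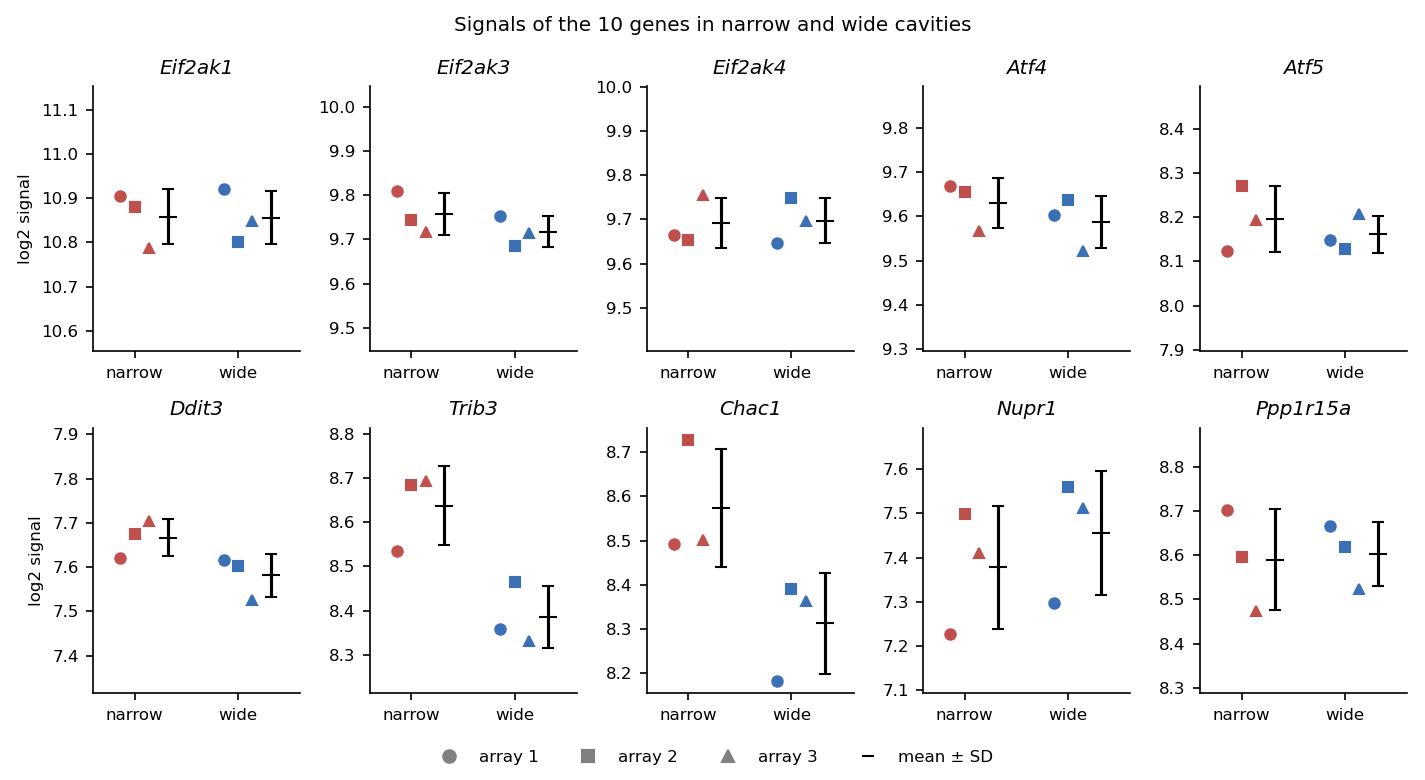
Log2 signal of each gene (vertical axes, all spanning the same range of log2 units) in narrow and wide cavities; symbols give the array number, and bars the mean ± SD of 3 arrays. All narrow arrays lie above all wide arrays for Trib3, Chac1 and Ddit3, and the groups overlap for the other 7 genes.

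The response starts with the eIF2 kinases. Eif2ak3 encodes PERK, the kinase of the endoplasmic reticulum membrane that responds to unfolded proteins. Its signals were 9.81, 9.74 and 9.72 in narrow cavities 1 to 3, against 9.75, 9.68 and 9.71 in wide cavities, a difference of 0.040 ± 0.044 (SE, n = 3 each). The groups overlapped, and the difference was 0.013 without narrow 1. Eif2ak4 encodes GCN2, which is activated when amino acids run short and uncharged tRNA builds up. It had 9.67, 9.65 and 9.76 in narrow cavities, against 9.65, 9.75 and 9.70 in wide ones, and a difference of -0.0054 ± 0.048. Eif2ak1 encodes HRI, a kinase held in check by haem that also relays mitochondrial stress. Its signals were 10.91, 10.88 and 10.79 in narrow cavities, against 10.92, 10.80 and 10.85 in wide cavities, and its difference was 0.0015 ± 0.051. For Eif2ak1 and Eif2ak4 the highest and the lowest array of either cavity covered almost the same range.

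Atf4 and Atf5, related bZIP factors whose translation is raised when eIF2 is phosphorylated, also overlapped between cavities. Atf4 had signals of 9.67, 9.66 and 9.57 in narrow cavities, against 9.60, 9.64 and 9.52 in wide ones. In each same-numbered pair the narrow array was the higher, by 0.065, 0.019 and 0.044, and the difference was 0.043 ± 0.050. It was 0.0099 without wide 3. For Atf5 the signals were 8.12, 8.27 and 8.19 in narrow cavities, against 8.15, 8.13 and 8.21 in wide cavities, with a difference of 0.035 ± 0.050. That value rested on narrow 2, and it was -0.0023 when this array was left out.

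Among the genes that act downstream of ATF4, 3 lay higher in every narrow array than in any wide array. Trib3 encodes a pseudokinase that binds ATF4 and AKT and restrains ATF4 activity. Its signals were 8.53, 8.68 and 8.69 in narrow cavities, against 8.36, 8.47 and 8.33 in wide cavities. The lowest narrow array stood 0.069 above the highest wide array, and the narrow mean was 1.19-fold the wide mean (difference 0.25 ± 0.06). Chac1 encodes a cytosolic enzyme that cleaves glutathione. It had 8.49, 8.73 and 8.50 in narrow cavities, against 8.18, 8.39 and 8.36 in wide ones. Its groups were 0.10 apart at the nearest, and the narrow mean was 1.20-fold the wide mean (difference 0.26 ± 0.08). Ddit3 encodes CHOP, a bZIP partner of C/EBP factors linked to cell death under lasting stress. Its groups barely separated, at 7.621, 7.676 and 7.704 in narrow cavities, against 7.616, 7.604 and 7.525 in wide cavities, with 0.0049 between narrow 1 and wide 1 and a difference of 0.085 ± 0.045.

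Over all genes 4.17% had every narrow array above every wide array and 3.54% had every narrow array below, and of the 10 genes 3 and 0 did so. Trib3 ranked 22 and Chac1 ranked 18 among 19938 differences counted from the most positive. The middle 95% of all differences ran from -0.128 to 0.123, and these were the 2 of the 10 genes outside it. The next in size were Ddit3 at 0.085, ranked 1393, and Nupr1 at -0.078, ranked 18154. Without both arrays numbered 1, Trib3 had a difference of 0.29 ± 0.06, Chac1 of 0.24 ± 0.08 and Ddit3 of 0.13 ± 0.05, and Eif2ak3 joined them as a gene whose narrow arrays lay above its wide arrays.

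**Figure D2:**
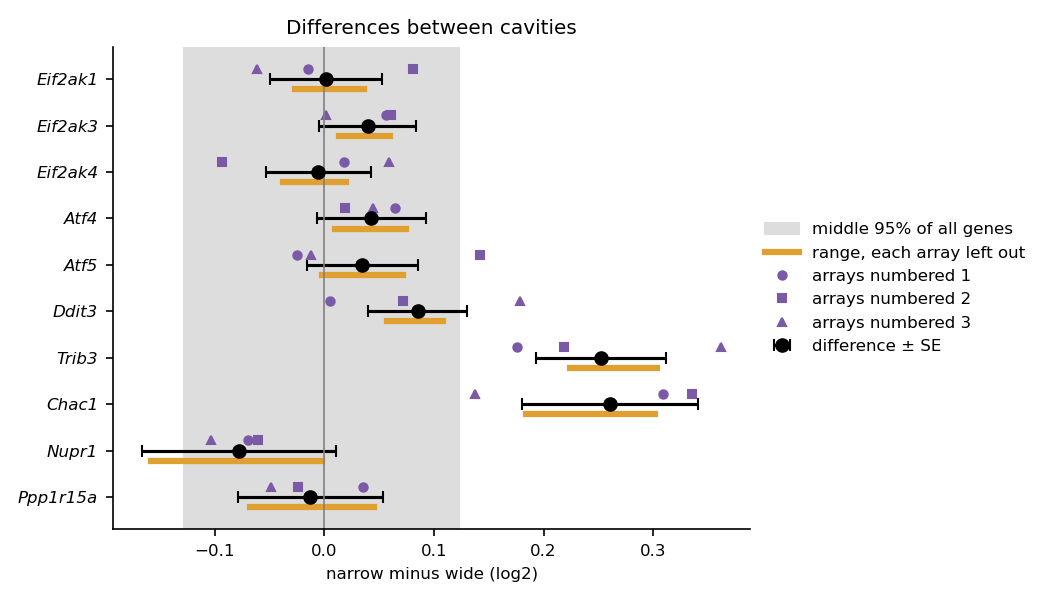
Narrow minus wide difference of each gene in log2 units (horizontal axis): black points with the SE of the fit, violet symbols for each same-numbered pair, orange bars for the range when each of the 6 arrays was left out. The grey band holds the middle 95% of all genes, from -0.128 to 0.123; Trib3 at 0.25 and Chac1 at 0.26 lie outside it.

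Nupr1 and Ppp1r15a are further stress-induced genes of the pathway, and neither was higher in narrow cavities. Nupr1 encodes a small chromatin-associated protein induced by ATF4 under stress. Its signals were 7.23, 7.50 and 7.41 in narrow cavities, against 7.30, 7.56 and 7.51 in wide cavities. The groups overlapped widely and the difference was -0.078 ± 0.088, yet in each same-numbered pair the narrow array was the lower, with differences of -0.070, -0.060 and -0.10. Ppp1r15a encodes GADD34, the inducible subunit that brings the phosphatase PP1 to eIF2 and so ends the response. It had 8.70, 8.60 and 8.47 in narrow cavities, against 8.67, 8.62 and 8.52 in wide cavities, and a difference of -0.013 ± 0.066. Its signal was highest in the array numbered 1 and lowest in that numbered 3 in both cavities.

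Much of the variation of these genes lay between replicate numbers. With 3 numbers but only narrow and wide cavities, the number takes on average the larger share even of random values. Of each gene's sum of squares over the 6 arrays, the share between numbers had a median of 54.1% over the 10 genes, close to the 53.6% over all genes. It was highest for Ppp1r15a at 94.3%, Nupr1 at 88.9% and Atf4 at 79.6%. The share between cavities was 78.6% for Trib3, 62.6% for Chac1 and 56.4% for Ddit3, with a median of 10.04% over all genes. For the remaining 7 genes the cavity share was 25.1% or less. Both arrays numbered 1 lay above the other 4 arrays for Ppp1r15a, Eif2ak1 and Eif2ak3, and below them for Nupr1. Within groups, Nupr1 and Chac1 were the most variable of the 10, with pooled SDs of 0.14 and 0.12 at the 94.0th and 89.9th percentiles of all genes. Narrow arrays were higher in 3 of 3 same-numbered pairs for 5 of the 10 genes, Trib3, Chac1, Ddit3, Atf4 and Eif2ak3, and lower for 1, Nupr1, where 14.8% and 13.9% of all genes did so. The number is clearly a pairing for the arrays numbered 1 only, and what it stands for is not given in the labels.

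**Figure D3:**
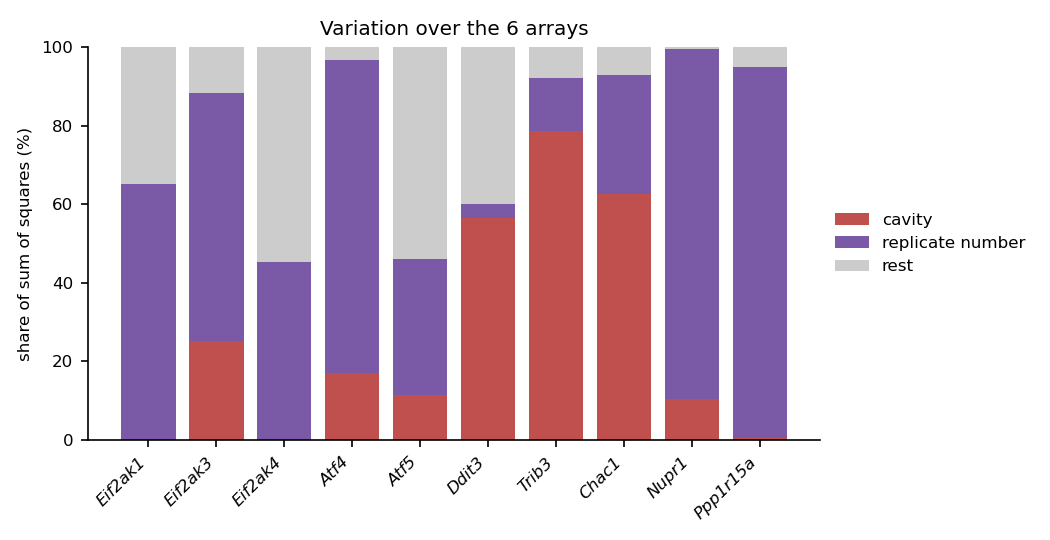
Share of each gene's sum of squares over the 6 arrays (percent, vertical axis) between cavities, between replicate numbers, and left over. The cavity takes over 50% for Ddit3, Trib3 and Chac1, up to 78.6% for Trib3, and the replicate number over 50% for Ppp1r15a, Nupr1, Atf4, Eif2ak1 and Eif2ak3.

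ATF4 binds with C/EBP partners to composite C/EBP-ATF response elements (CAREs). The promoters of the genes with the largest differences are shown, and that of Nupr1, an ATF4 target with a difference of -0.078 ± 0.088. The sequences are from RefSeq on GRCm38.p6, the 250 bases before the annotated start of each gene, 5′ to 3′ on the gene's strand, with matches to the CARE letters TTNCATCA on either strand in capitals. They lie at chr2:119350992-119351241 (plus strand) for Chac1, chr2:152344061-152344310 (minus strand) for Trib3 and chr7:126625471-126625720 (minus strand) for Nupr1.
Chac1: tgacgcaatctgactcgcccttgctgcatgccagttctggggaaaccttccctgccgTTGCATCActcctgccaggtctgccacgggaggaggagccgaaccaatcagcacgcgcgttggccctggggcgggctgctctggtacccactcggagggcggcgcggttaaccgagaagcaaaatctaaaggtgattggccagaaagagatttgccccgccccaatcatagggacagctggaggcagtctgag
Trib3: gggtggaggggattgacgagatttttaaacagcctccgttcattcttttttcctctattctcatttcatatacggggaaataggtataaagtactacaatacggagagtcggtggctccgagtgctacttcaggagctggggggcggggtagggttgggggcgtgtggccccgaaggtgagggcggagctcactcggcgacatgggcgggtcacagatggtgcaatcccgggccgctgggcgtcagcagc
Nupr1: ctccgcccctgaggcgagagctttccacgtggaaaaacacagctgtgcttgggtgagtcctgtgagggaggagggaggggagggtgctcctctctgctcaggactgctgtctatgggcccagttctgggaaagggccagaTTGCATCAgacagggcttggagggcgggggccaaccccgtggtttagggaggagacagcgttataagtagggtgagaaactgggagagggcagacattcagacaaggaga

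Chac1 and Nupr1 held the same strict element, TTGCATCA, at 193 to 186 and at 110 to 103 bases before the start. Their differences between cavities were 0.26 ± 0.08 and -0.078 ± 0.088. That of Nupr1, whose groups overlapped, was -0.0020 without narrow 1. Whether the element had a part in either was not tested. Trib3 had no match before the start and 1 looser match, TTACATCA, at bases 15 to 22 after it. The tables held 12 promoters for the 10 genes, with 2 each for Atf5 and Eif2ak4. Including the 50 bases after the start, 3 of the 12 held TTNCATCA, against 3.97% of all 32851 promoters, and 2 held TTGCATCA, which the first contains, against 0.895%. The cyclic AMP response element TGACGTCA, a palindrome, stood in 1, that of Ppp1r15a at 12 to 5 bases before the start, against 1.79% of all promoters. The endoplasmic reticulum stress element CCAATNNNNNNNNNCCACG stood in 0 of the 12 and in 0.119% of all. These are matches of letters in a short window and not measured binding, and the genes were chosen as members of the pathway.

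The genes that ATF4 is known to switch on in other settings were taken as a list of 40 without the 10 genes, of which 38 were measured. By the same test 0 passed in either direction, while at an unadjusted p under 0.05 stood 1 higher, Ddit4 (1.68% of all genes did so), and 1 lower, Vldlr (1.72%). Their median difference was 0.046, against 0.0011 over all genes, with 25 positive and 13 negative. It was 0.045 without both arrays numbered 1 and 0.035 without narrow 2. Every narrow array lay above every wide array for 8 of the 38 (background 4.17%) and below for 1 (background 3.54%). The 8, named after their values were seen, were Ddit4, the cystathionine lyase gene Cth, the serine synthesis genes Phgdh and Psat1, the amino acid transporter Slc7a5, the glycyl-tRNA synthetase Gars and the bZIP genes Jdp2 and Cebpg. Apart from Ddit4 their differences ran from 0.045 to 0.10, with SEs from 0.037 to 0.048.

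Ddit4, an inhibitor of mTORC1, had signals of 8.49, 8.67 and 8.64 in narrow cavities, against 8.23, 8.46 and 8.28 in wide cavities (difference 0.28 ± 0.07). Next stood the glycine transporter Slc6a9 at 0.14 ± 0.06. At the other end Vldlr, a lipoprotein receptor reported as an ATF4 target under endoplasmic reticulum stress, had 8.62, 8.70 and 8.76 in narrow cavities, against 8.94, 8.96 and 8.92 in wide cavities (difference -0.25 ± 0.05). Stc2, a secreted glycoprotein, had -0.051 ± 0.084, and Atf3, a bZIP repressor of the same pathway, was nearest to 0 at -0.0042 ± 0.041. The list thus held differences as large as that of Trib3 in both directions. A promoter sequence was found for 31 of its genes. Of these, 10 held TTNCATCA (32.3%, against 4.51% of all genes with a promoter). Since the list was made of known ATF4 targets, that share describes the list and is no result of these arrays. The 10 had differences from -0.25 to 0.11 and a median of 0.057, and the 21 without the letters had a median of 0.041.

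The genes around eIF2 and its kinases were described in the same way. In the list of eIF2 and eIF2B subunits and eIF2 phosphatase genes, 13 of 14 were measured, 0 passed and the median was 0.0050. Its most positive member was Ppp1r15b, the constitutive partner of PP1 and paralog of Ppp1r15a, with 10.53, 10.55 and 10.48 in narrow cavities, against 10.43, 10.45 and 10.46 in wide cavities (0.072 ± 0.040). The PP1 catalytic gene Ppp1ca lay lowest at -0.022 ± 0.040. Among 10 measured regulators of the eIF2 kinases 0 passed and the median was 0.039, with 9 positive. At an unadjusted p under 0.05 stood 2 of them, Oma1 and Prkra, both higher in narrow cavities (1.68% of all genes did so). Eif2ak2, the kinase PKR that responds to double-stranded RNA, had the most positive difference (0.16 ± 0.07) but was not among these 2. Its signals were 8.03, 7.74 and 7.95 in narrow cavities, against 7.77, 7.75 and 7.72 in wide ones, so that narrow 2 lay within the wide range. Prkra, an activator of PKR, had 0.14 ± 0.06. Oma1, a mitochondrial protease that relays stress towards HRI and was named after its values were seen, had 9.05, 8.98 and 9.03 in narrow cavities, against 8.89, 8.91 and 8.86 in wide cavities (0.13 ± 0.04).

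For the IRE1 and ATF6 arms, which act beside PERK in the unfolded protein response, 0 of 27 measured genes passed and the median was 0.012, with 18 positive. The range ran from -0.052 for the disulfide isomerase Pdia3 to 0.080 for the co-chaperone Dnajb9. Every narrow array lay above every wide array for 2 of the 27, beside 4.17% of all genes. They were Atf6 at 0.076 ± 0.042 and Ern1, named after its values were seen, at 0.066 ± 0.038. Among the partners and turnover factors of ATF4 and CHOP 0 of 13 passed and the median was -0.0019, with Cebpa highest at 0.14 ± 0.09 and the prolyl hydroxylase Egln3 lowest at -0.050 ± 0.099. Of 7 paralogs of the 10 genes 0 passed, and their median was 0.062, with 5 positive, of which Eif2ak2 at 0.16 and Ppp1r15b at 0.072 were the highest. Trib2, a relative of Trib3, had -0.0036 ± 0.050, and Chac2, the constitutive relative of Chac1, had 0.0083 ± 0.061, where Trib3 and Chac1 themselves had 0.25 and 0.26.

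**Figure D4:**
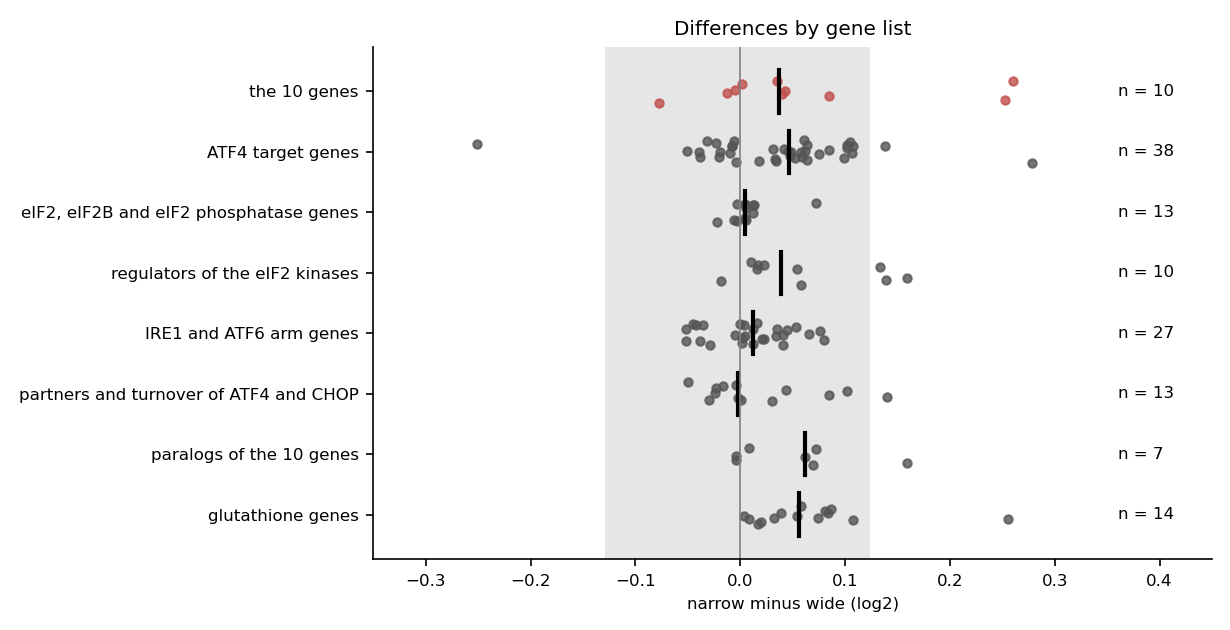
Narrow minus wide difference in log2 units (horizontal axis) for each measured gene of each list, with a black bar at the median and n genes at the right; the grey band holds the middle 95% of all genes. Medians run from -0.0019 to 0.062, and the genes beyond 0.2 in size are Trib3, Chac1, Ddit4, Vldlr and Hmox1.

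The profiles most like that of Trib3 were found by the root mean square distance between log2 signals centred on each gene's mean over the 6 arrays, among 17108 genes. Ddit4 was the closest at 0.041, where the signal of Trib3 itself spread by 0.14, followed by Lefty1, an inhibitor of Nodal, at 0.045. Fcamr, Pabpc2 and the secreted kinase gene Pkdcc came next, at up to 0.058. Chac1 ranked 147 and Ddit3 ranked 209 in this order. For Chac1 the closest were Capn6 at 0.056, then Aff2, Irx3, Tex19.1 and Mansc1, at up to 0.069, and Trib3 ranked 38. Chac1 peaked in narrow 2 and was lowest in wide 1, whereas Trib3 was about equally high in narrow 2 and 3. When profiles were centred within each cavity, so that the difference between cavities no longer counted, 0 of the 5 closest genes were shared with those named, for Trib3 as for Chac1. Chac1 then ranked 11240 in the order of likeness to Trib3, and Trib3 ranked 5129 in that of Chac1, so the pair was no longer close.

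**Figure D5:**
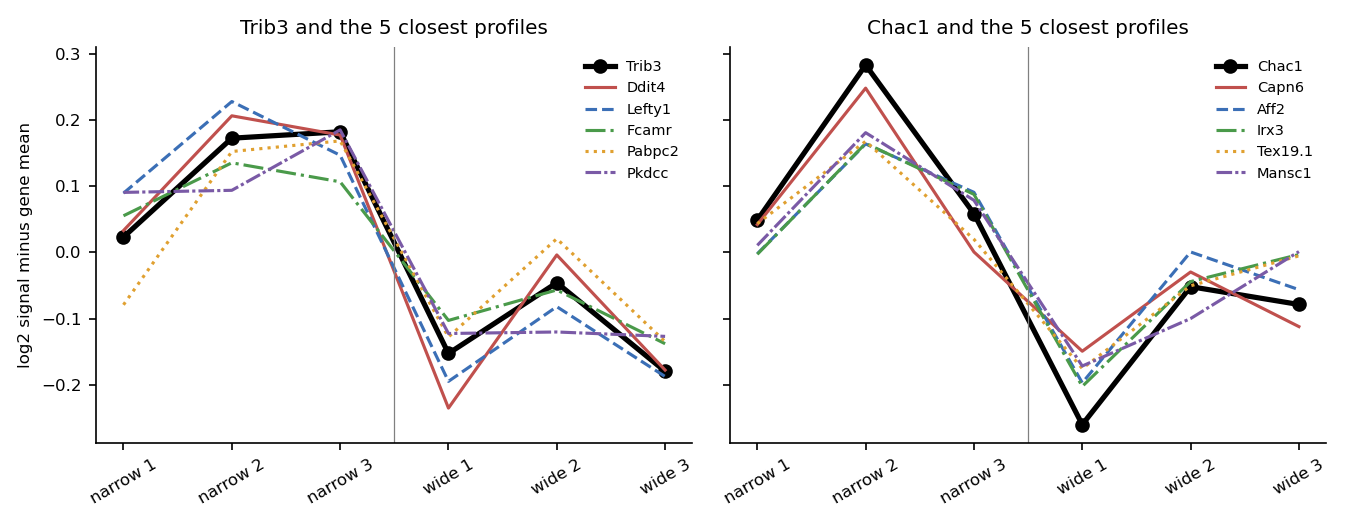
Log2 signal minus the gene's mean over the 6 arrays (vertical axis) by array (horizontal axis, narrow left, wide right) for Trib3 and Chac1 in black and the 5 genes closest to each in colour. Ddit4 follows Trib3 at a root mean square distance of 0.041, and Capn6 follows Chac1 at 0.056.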

How the data were processed

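The authors deposited log2 signals of 28853 features for 6 Affymetrix Mouse Gene 1.0 ST arrays. The log2 scale was read from their range, and how background was corrected and arrays normalized is not stated in the sources used. Between-array scaling removes any change of total RNA. Genes were named from GEO's platform annotation, with the brightest of several features per gene and no filter. The platform's build is not given, so gene positions were not used. Narrow minus wide was fitted with limma 3.58.1 in R 4.3.3 on all 6 arrays, two-sided, with Benjamini-Hochberg adjustment over 19938 genes. The fit was run on simulated data with independent noise and added changes larger than any described here. That run did not cover smaller differences or a shift between replicate numbers. P-values set each difference against the spread between pools within a cavity, moderated over all genes. Without the block this spread includes the shift of the arrays numbered 1. Precision is limited by having 3 arrays a group. Deviations from group means correlated at 0.516, 0.176 and 0.272 between same-numbered arrays and at 0.178 between narrow 2 and wide 3. All 3 same-numbered values exceed 0.1, so the unblocked fit was repeated with the number as a block, although the pairing is clear for number 1 only. Members and lists were chosen with earlier results of these data known. Named genes were all members, the 2 highest, 2 lowest and the nearest to 0 of each list, and the 5 profiles closest to Trib3 and Chac1; where a list is summarised, some of these are left out. The alternatives were a replicate block, feature means, a signal filter, quantile normalization, another variance prior, all features, and leaving out arrays.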

Additional observations from a re-analysis of the deposited data

How the results depend on the processing

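Under every setting run, 0 genes passed the adjusted threshold. The 678 genes at an unadjusted p under 0.05 became 1446 with the replicate number as a block (7.25%) and 384 when the dimmer 50% of genes were left out, with fewer genes in the test. Leaving out each array gave 497 to 990. With the block, each difference and its sign stayed as they were by construction and no call changed, while the SE of Nupr1 became 0.034 in place of 0.088. Positive differences among the 10 genes numbered 6 to 8 with single arrays left out, and 6 under quantile normalization. Genes with all narrow arrays above all wide arrays numbered 3 to 4, and the median of the 10 ran from 0.018 to 0.053. When single arrays were left out, Atf4 ran from 0.0099 to 0.075, Eif2ak3 from 0.013 to 0.060, Trib3 from 0.22 to 0.30, Chac1 from 0.18 to 0.30, Ddit3 from 0.057 to 0.11 and Nupr1 from -0.16 to -0.0020, the last without narrow 1. Of 118 values of single genes under the alternatives 11 changed sign, all of Atf5, Ppp1r15a, Eif2ak1 or Eif2ak4. Without the dimmer 50% of genes, the list median of the paralogs went from 0.062 to 0.0083 and that of the kinase regulators from 0.039 to 0.020. Over 12 alternatives the median of the ATF4 targets ran from 0.035 to 0.049. The medians of the eIF2 list and of the partners and turnover list changed sign in 4 and 6 of the 12. Ddit3 and Nupr1 lay below the median signal, so the counts over the 10 genes have no value under that filter. Leaving out both arrays numbered 1 was chosen after the data were seen. The values used carry no background estimate, so the floor under dim signals is unknown.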

Other observations

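A list of genes of glutathione, the substrate of the Chac1 enzyme, and of related redox enzymes (Hmox1, Nqo1 and Txnrd1) had positive differences throughout: 14 of the 14 measured of 15, against 50.9% of all genes, with a median of 0.056 and 0 past the adjusted threshold. The highest was Hmox1, haem oxygenase, which degrades haem and does not act on glutathione, with 12.11, 12.00 and 11.91 in narrow cavities, against 11.85, 11.70 and 11.70 in wide cavities (0.25 ± 0.07). Every narrow array also lay above every wide array for Gclc, the rate-limiting enzyme of glutathione synthesis, at 0.081 ± 0.040 and for Gsr, glutathione reductase, at 0.058 ± 0.038, which makes 3 of 14 beside 4.17% of all genes. The cystine transporter gene Slc7a11 had 0.11 ± 0.07, and the nearest to 0 was Oplah at 0.0032 ± 0.049. The mean over the 14 genes was 10.003 to 10.035 in narrow arrays and 9.93 to 9.96 in wide arrays. The median was 0.052 without both arrays numbered 1 and from 0.046 to 0.065 with single arrays left out.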
